A study of Mus musculus with 2 samples.

Results

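Golgi glycosyltransferases are the enzymes that build sugar chains on proteins and lipids, and 69 genes of this kind were read on both arrays, out of 18193 genes with a single symbol in the platform annotation. They are defined by gene symbol, as all genes whose symbols begin with Galnt, C1galt, Gcnt, B3gnt, B4galt, St3gal, St6gal, St8sia or Fut and carry a number. RNA came from whole pancreas of 10-week-old male offspring of C57BL/6J mice. In the threonine-deficient group the dams ate a diet short of threonine, an essential amino acid, from embryonic day 12.5 to 14.5, and in the control group they ate control diet over the same days. All offspring were weaned at 3 weeks onto control diet and received no treatment themselves. Each group was 1 pool of RNA on 1 Affymetrix Mouse Genome 430 2.0 array, so every difference below is between 2 pools, no value has a replicate, and no test of a gene was possible. The sources used here do not state how many animals went into a pool.

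Mucin-type O-glycosylation starts in the Golgi when a Galnt enzyme attaches N-acetylgalactosamine to the hydroxyl group of a serine or threonine in a protein. C1galt1 adds galactose to make the core 1 structure, Gcnt enzymes add an N-acetylglucosamine branch, B3gnt and B4galt enzymes lengthen the chain, and sialyltransferases and fucosyltransferases cap it. Several of these enzymes also work on N-linked glycans and on glycolipids, and such chains coat the epithelial surfaces and secreted proteins of the pancreas.

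Of the 69 genes, 37 had a signal above the floor on at least 1 array, 31 of them on both, and 32 lay below it on both. The floor was a MAS5 signal of 264.9, which is the 60th percentile of the threonine-deficient array, that of the control array being 241. Signals under it were raised to it before log2 was taken, so a fold against a signal at the floor is a lower bound. In these whole-tissue pools, a lower signal can come from fewer cells of a type or from less RNA per cell, and the values do not separate them. Of the 37 genes, 1 had a signal lower by 2-fold or more in the threonine-deficient pool and 0 had one higher by as much. Over the 10758 genes above the floor, 0.874% were at least 2-fold lower and 1.28% at least 2-fold higher. At 1.5-fold, 3 of the 37 were lower and 1 was higher, beside 5.36% and 7.2% of all genes. Counts of 1 and 3 in 37 are near what these shares give, and the median log2 ratio of the threonine-deficient over the control pool was 0.02 over the 37 genes and 0.00 over all genes above the floor. Log2 ratios were positive for 19 and negative for 18 of the 37, while 50.1% of all genes above the floor had a positive one and 49.9% a negative one. The 6 genes above the floor on 1 array only, 5 of them in the threonine-deficient pool, had their sign fixed by the floor. Over the 31 genes above it on both arrays the median was −0.07, with 14 positive and 17 negative, beside −0.02 over all such genes.

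**Figure D1:**
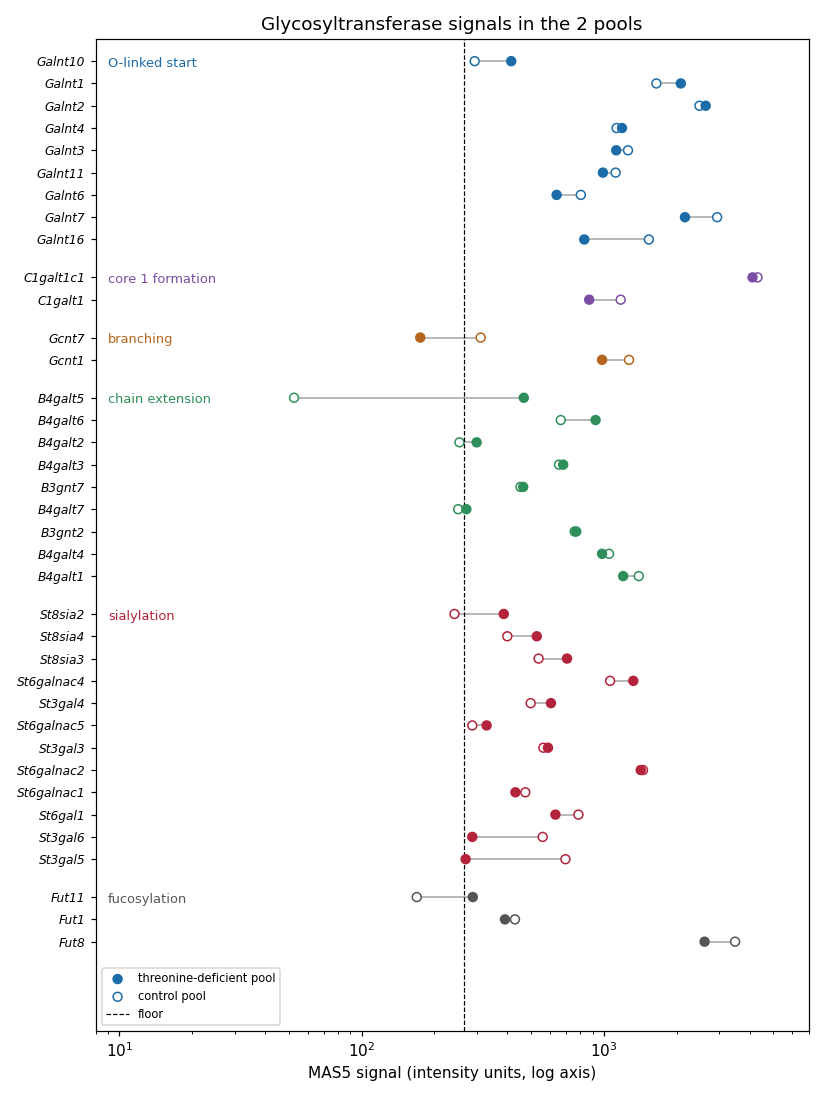
MAS5 signal on a log axis for the 37 glycosyltransferase genes above the floor on at least 1 array, by step of glycan synthesis, with filled points for the threonine-deficient pool and open points for the control pool (1 array each, no error bars). Most pairs of points lie close together; St3gal5, St3gal6 and Galnt16 have the filled point to the left, and B4galt5 has its open point far below the dashed floor of 264.9.

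Among the genes furthest apart between the pools, St3gal5 and St3gal6 are both sialyltransferases, while Galnt16 and B4galt5 act at other steps. St3gal5, the GM3 synthase that puts the first sialic acid on lactosylceramide, had a signal of 269 in the threonine-deficient pool and 695 in the control pool, 2.58-fold lower. St3gal6, which sialylates galactose-ended chains, was 1.95-fold lower (287 in the threonine-deficient pool, 559.7 in the control pool), just outside the 2-fold threshold. Galnt16, one of the enzymes that start O-linked chains, was 1.85-fold lower (831 in the threonine-deficient pool, 1535 in the control pool). B4galt5, a lactosylceramide synthase, was at least 1.76-fold higher in a probe set with the suffix _s_at, which marks possible sharing between transcripts, with 468 in the threonine-deficient pool and 52.7, below the floor, in the control pool. The signals of St3gal5 and St3gal6 in the threonine-deficient pool lay just above the floor.

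The 250 bases before the annotated starts of 3 of these genes are given from RefSeq (build GRCm38.p6), as the start regions of the gene past 2-fold, of the gene higher past 1.5-fold and of the O-linked starter past 1.5-fold. Capitals mark the GC box, GGGCGG on either strand (CCGCCC on the printed strand), a site to which Sp1-type factors can bind. The window of St3gal5 lies at chr6:72097358-72097607 on the plus strand, that of B4galt5 at chr2:167349179-167349428 on the minus strand, and the third of 3 windows of Galnt16 at chr12:80518740-80518989 on the plus strand.
St3gal5: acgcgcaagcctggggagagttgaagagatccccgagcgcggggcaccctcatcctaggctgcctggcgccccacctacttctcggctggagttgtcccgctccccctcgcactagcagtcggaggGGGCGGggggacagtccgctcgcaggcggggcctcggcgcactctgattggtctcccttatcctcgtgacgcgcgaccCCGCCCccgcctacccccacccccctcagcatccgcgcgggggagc
B4galt5: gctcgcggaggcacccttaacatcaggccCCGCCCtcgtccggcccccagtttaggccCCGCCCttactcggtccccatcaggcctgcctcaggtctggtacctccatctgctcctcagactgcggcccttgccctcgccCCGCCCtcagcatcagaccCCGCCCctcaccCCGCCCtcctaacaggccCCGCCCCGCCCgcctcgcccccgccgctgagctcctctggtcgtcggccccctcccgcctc
Galnt16: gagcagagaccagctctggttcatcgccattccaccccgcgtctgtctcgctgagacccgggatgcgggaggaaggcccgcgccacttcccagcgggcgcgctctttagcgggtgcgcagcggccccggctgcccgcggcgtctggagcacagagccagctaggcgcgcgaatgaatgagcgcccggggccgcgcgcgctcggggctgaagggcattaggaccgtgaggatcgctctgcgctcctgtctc

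B4galt5 held 7 GC boxes in this window, some overlapping, St3gal5 held 2, and none of the 3 windows of Galnt16 held the letters. The windows of St3gal6, not printed here, held 4 GC boxes and 16 CG dinucleotides in one and 0 and 1 in the other. The CG dinucleotide occurred 21 times in the B4galt5 window, 25 times in that of St3gal5 and 31 times in the one shown for Galnt16. The Galnt16 windows not shown held 14 and 23. Neither TATAAA nor TGATGNAA, a core of the elements through which ATF4 acts in the amino acid response, occurred on either strand in the windows of St3gal5, St3gal6, Galnt16 and B4galt5. Over all genes of the set above the floor, 22 of 40 windows, 55%, held a GC box, against 56.3% of the 11166 windows of all genes above the floor. For the genes of the set below the floor it was 13 of 24, or 54.2%, against 35.4% of windows of all genes below the floor. TGATGNAA was found in 2 of the 40 windows, 5%, beside 2.07% of windows of all genes above the floor, and in 0 of the 24, beside 2.90% of those below it. TATAAA was found in 1 of 40, beside 7.03%, and in 1 of 24, beside 11.7%. Of all 32851 promoter windows, 32.7% held a GC box, 3.45% TGATGNAA and 12.4% TATAAA. Windows were found for 28 of the 37 genes above the floor and 20 of the 32 below it. These matches describe letters only.

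The enzymes that start O-linked chains on threonine and serine went both ways. Of 18 Galnt genes, 9 were above the floor, all on both arrays, with a median log2 ratio of −0.16, 4 positive and 5 negative. Galnt2, one of the widely expressed starters, had signals of 2633 in the threonine-deficient pool and 2483 in the control pool, a log2 ratio of 0.08. Galnt1, the other common starter, had 2079 in the threonine-deficient pool and 1649 in the control pool (0.33), and its second probe set had 1743 in the threonine-deficient pool and 1582 in the control pool (0.14). These genes were slightly higher in every probe set read, with the further probe sets of Galnt2 at 0.15 and 0.56.

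Galnt7, which acts on peptides that already carry a sugar, had 2164 in the threonine-deficient pool and 2937 in the control pool, a log2 ratio of −0.44. Its other probe sets gave −0.23 and −0.25, so all 3 readings were lower in the threonine-deficient pool. The local spread, the scaled median absolute deviation of log2 ratios among the 200 genes nearest in signal, was 0.19 for Galnt7, 0.33 for Galnt16 and 0.53 for St3gal5. Galnt10, which also prefers peptides that carry a sugar, had 415 in the threonine-deficient pool and 293 in the control pool (0.50), and its second probe set was at least 1.29-fold higher (342 in the threonine-deficient pool, 253 in the control pool). That difference was smaller than its local spread of 0.56.

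Galnt3, known for protecting the hormone FGF23 from cleavage, had 1125 in the threonine-deficient pool and 1259 in the control pool (−0.16). Galnt4 had 1189 in the threonine-deficient pool and 1129 in the control pool (0.07), and its second probe set had 291 in the threonine-deficient pool and 373 in the control pool (−0.36). Galnt6 had 639 in the threonine-deficient pool and 804 in the control pool (−0.33), whereas its second probe set had 391 in the threonine-deficient pool and 259.98 in the control pool, at least 1.47-fold higher. Galnt11 had 992 in the threonine-deficient pool and 1119 in the control pool (−0.17). For Galnt4 and Galnt6 the readings of the same gene therefore pointed opposite ways, and for Galnt16 a single probe set was available. Galnt5, Galnt9, Galnt12, Galnt13, Galnt14, Galnt15, Galnt18, Galntl5 and Galntl6 lay below the floor on both arrays.

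Core 1 formation needs C1galt1, the galactosyltransferase, and C1galt1c1 (Cosmc), the chaperone that it requires to fold. C1galt1c1 had 4112 in the threonine-deficient pool and 4311 in the control pool, a log2 ratio of −0.07. C1galt1 had 871 in the threonine-deficient pool and 1175 in the control pool (−0.43) in its brightest probe set, while the next had 519.5 in the threonine-deficient pool and 478 in the control pool (0.12) and the dimmest had 437 in the threonine-deficient pool and 476 in the control pool (−0.12). The readings of the enzyme thus did not share a direction, and that of its chaperone was near 0.

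Branching was read by few genes. Gcnt1, which makes the core 2 branch, had 984 in the threonine-deficient pool and 1271 in the control pool, 1.29-fold lower, with a local spread of 0.30 beside its log2 ratio of −0.37. Gcnt7 was at least 1.17-fold lower, with 175, below the floor, in the threonine-deficient pool and 310.3 in the control pool. Gcnt2, which makes the I branch on lactosamine chains, and Gcnt3, the mucin-type branching enzyme, were below the floor on both arrays. The median log2 ratio of the 2 genes read was −0.30.

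**Figure D2:**
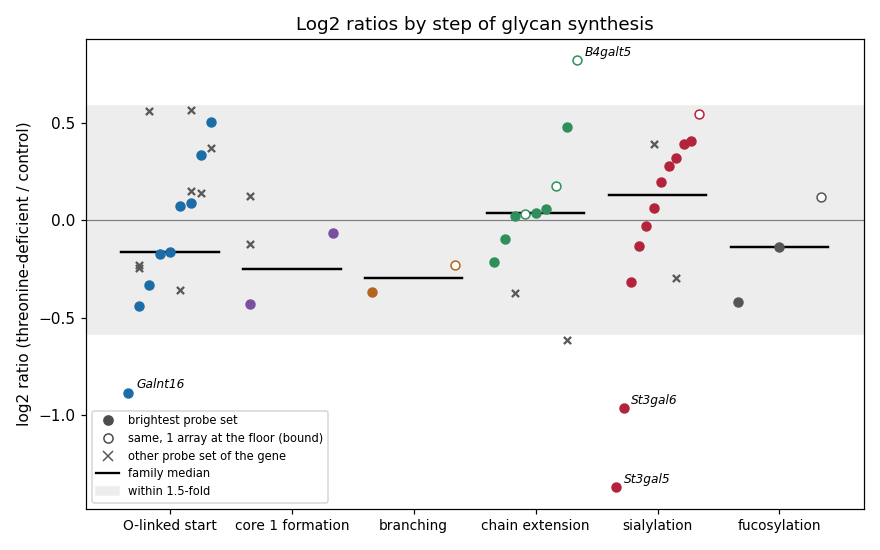
Log2 ratio of the threonine-deficient over the control pool for each gene above the floor, by step of synthesis, with black bars for family medians, crosses for other probe sets of the same gene, open circles for bounds and a grey band for differences within 1.5-fold. Of the 37 genes, 33 lie in the band; St3gal5 (−1.37), St3gal6 (−0.97), Galnt16 (−0.89) and B4galt5 (at least 0.82) lie outside it, and crosses often lie on the other side of 0 from their gene.

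In chain extension, 9 of 16 genes were above the floor, with a median log2 ratio of 0.04, 7 positive and 2 negative. B4galt2, B4galt5 and B4galt7, above the floor in the threonine-deficient pool alone, could only be positive, and the 6 genes read on both arrays were 4 positive and 2 negative with a median of 0.03. B3gnt2, the main enzyme of polylactosamine synthesis, had 769.9 in the threonine-deficient pool and 758 in the control pool (0.02), with −0.37 in its second probe set. B3gnt7 had 465 in the threonine-deficient pool and 453 in the control pool (0.04). B4galt1, the major galactosyltransferase for N-acetylglucosamine, had 1202 in the threonine-deficient pool and 1394 in the control pool (−0.21). B3gnt3, which extends core 1, and B3gnt6, which makes core 3, were below the floor, as were B3gnt4, B3gnt5, B3gnt8, B3gnt9 and B3gntl1.

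All 7 B4galt genes were above the floor on at least 1 array. B4galt3 had 679.8 in the threonine-deficient pool and 654 in the control pool (0.06). B4galt4 had 984 in the threonine-deficient pool and 1051 in the control pool (−0.10). B4galt2, with 299 in the threonine-deficient pool and 254 in the control pool, and B4galt7, which acts in the linker of proteoglycans, with 271 in the threonine-deficient pool and 251 in the control pool, were above the floor in the threonine-deficient pool alone. Their bounds were at least 1.13-fold and at least 1.02-fold higher. Apart from B4galt5 and B4galt6, the B4galt genes lay within a log2 ratio of −0.21 to 0.17.

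B4galt5 and B4galt6 both make lactosylceramide, the substrate of St3gal5. B4galt6 had 925 in the threonine-deficient pool and 664 in the control pool (0.48), but its second probe set had 366 in the threonine-deficient pool and 559.8 in the control pool (−0.61). The second probe set of B4galt5 was below the floor on both arrays, with 152 in the threonine-deficient pool and 49.0 in the control pool. Of the other genes on the glycolipid route, Ugcg, which makes glucosylceramide, had a log2 ratio of −0.40, B4galnt1, which makes GM2 from GM3, one of −0.12 (2504 in the threonine-deficient pool, 2728 in the control pool), and B3galt4, the next enzyme, one of −0.12. St8sia1, the GD3 synthase, was below the floor on both arrays. B4galt5 entered through the threonine-deficient array alone, so its direction was fixed by the floor, and the 2 readings of B4galt6 went opposite ways.

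Sialylation was the largest group, with 12 of 20 genes above the floor, a median log2 ratio of 0.13, 7 positive and 5 negative. It held the lowest ratio of the set and also genes with higher signals. Among the St3gal enzymes, St3gal4 had 605 in the threonine-deficient pool and 499 in the control pool (0.28), and St3gal3 had 588 in the threonine-deficient pool and 563 in the control pool (0.06), with 0.39 in its second probe set. St3gal1, which caps core 1, and St3gal2, which acts on core 1 and on gangliosides, were below the floor.

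The readings of St3gal5 and St3gal6 differed in how far other probe sets matched them. The second probe set of St3gal5 had 86.9 in the threonine-deficient pool and 164 in the control pool, lower in the same direction but under the floor on both arrays. Both St3gal5 probe sets carry the suffix _a_at, which marks several transcripts of the same gene. For St3gal6, the brightest probe set has the suffix _x_at, which marks possible cross-hybridisation. The 2 next brightest had 262 and 194 in the threonine-deficient pool, against 234 and 213 in the control pool, all below the floor, so they did not show the 1.95-fold difference.

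Of the enzymes that add sialic acid to sialic acid, 2 were above the floor on both arrays, St8sia3 and St8sia4, and a further one on 1 array. St8sia2, which builds polysialic acid on the adhesion molecule NCAM, was at least 1.46-fold higher (386 in the threonine-deficient pool and 242, below the floor, in the control pool). St8sia4, the other polysialyltransferase, had 529 in the threonine-deficient pool and 399.7 in the control pool (0.40). St8sia3 had 705 in the threonine-deficient pool and 538 in the control pool (0.39). The sign of St8sia2 was fixed by the floor, and the differences were about the size of the local spread, which was 0.42 for St8sia4, 0.38 for St8sia3 and 0.61 for St8sia2. Their second probe sets were below the floor on both arrays and went both ways. In the threonine-deficient pool they had 61.8 for St8sia4, 148 for St8sia3 and 197 for St8sia2, against 194.5, 202 and 122 in the control pool. St8sia5 and St8sia6 were below the floor in their brightest probe sets.

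St6galnac enzymes put sialic acid on the inner N-acetylgalactosamine of O-linked chains or of gangliosides, and 2 of the 4 above the floor had positive and 2 negative log2 ratios. St6galnac1, which makes the sialyl-Tn structure, had 432 in the threonine-deficient pool and 474 in the control pool (−0.14). St6galnac2 had 1421 in the threonine-deficient pool and 1452 in the control pool (−0.03). St6galnac4 had 1324 in the threonine-deficient pool and 1062 in the control pool (0.32), with −0.30 in its second probe set (595 in the threonine-deficient pool, 731 in the control pool). St6galnac5, an enzyme of gangliosides, had 328 in the threonine-deficient pool and 287 in the control pool (0.20). St6gal1, which adds the alpha-2,6 sialic acid of N-glycans, had 632 in the threonine-deficient pool and 786 in the control pool (−0.32). St6gal2, St6galnac3 and St6galnac6 were below the floor.

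Of 9 fucosylation genes, 3 were above the floor. Fut8, which adds the core fucose of N-glycans, had 2607 in the threonine-deficient pool and 3485 in the control pool, a log2 ratio of −0.42 beside a local spread of 0.21, and its other probe sets were below the floor. Fut1, which makes the H antigen, had 391 in the threonine-deficient pool and 429.9 in the control pool (−0.14). Fut11 was at least 1.09-fold higher (288 in the threonine-deficient pool, 169 in the control pool). The Lewis antigen enzymes Fut4, Fut7 and Fut9 were below the floor, as were Fut2, Fut10 and the pseudogene Fut4-ps1. The median log2 ratio of the 3 genes read was −0.14.

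Between families, the medians ran from −0.30 for branching through −0.25 for core 1 formation, −0.16 for the O-linked start, −0.14 for fucosylation and 0.04 for chain extension to 0.13 for sialylation. Ranges overlapped, with the O-linked start from −0.89 to 0.50 and sialylation from −1.37 to 0.54. Over genes above the floor on both arrays the medians were −0.37 for branching, from 1 gene, −0.28 for fucosylation, 0.03 for chain extension and 0.06 for sialylation. No test of these differences was possible, and branching, core 1 and fucosylation rest on 2, 2 and 3 genes. Of genes at the floor on 1 array, 5 of the set were read in the threonine-deficient pool and 1 in the control pool, and over all genes 1158 were read in the threonine-deficient pool alone and 766 in the control pool alone.

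The set held 10 genes with signals of at least 1000 on both arrays, Galnt1, Galnt2, Galnt3, Galnt4, Galnt7, B4galt1, C1galt1c1, Fut8, St6galnac2 and St6galnac4. Their log2 ratios ran from −0.44 to 0.33. All 10 were within 1.5-fold, as were 97.6% of the 3801 genes of such signal over the whole array.

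Second readings of the same gene set the limit on single values. For 11 genes of the set, the second brightest probe set was also above the floor on at least 1 array. It had the same sign as the first in 5 and the opposite sign in 6. Over all 4207 genes with such a pair, 52.0% had the same sign. The Pearson correlation between the 2 log2 ratios was 0.05 over all these genes and −0.22 over the 11, so a shared sign carries little weight. The error per probe set, the standard deviation that the pairs imply, was 0.38 for the 11 genes and 0.37 for all, on the log2 scale. The genes with the same sign were Galnt1, Galnt2, Galnt7, Galnt10 and St3gal3, and those with opposite signs were Galnt4, Galnt6, C1galt1, B3gnt2, B4galt6 and St6galnac4. For Galnt10 and Galnt6 the second reading was above the floor in the threonine-deficient pool alone, so its sign was fixed by the floor. This error holds whatever differs between 2 probe sets of a gene on the same 2 arrays, and does not cover the spread between animals or pools. None of the 4 genes past 1.5-fold had a further probe set that cleared the floor.

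**Figure D3:**
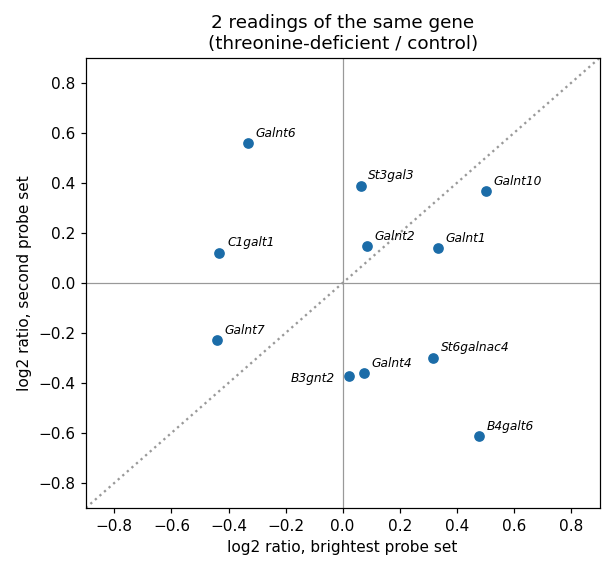
Log2 ratio (threonine-deficient over control) in the second brightest probe set against that in the brightest probe set for the 11 genes with both above the floor on at least 1 array. Each point is a gene and the dotted line marks equality. The 6 genes in the upper left and lower right have opposite signs, B4galt6 (0.48 and −0.61) and Galnt6 (−0.33 and 0.56) being furthest from the line.

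Genes that supply the activated sugars were read alongside. In sialic acid supply, 5 of 5 genes above the floor were higher in the threonine-deficient pool, by log2 ratios of 0.09 to 0.33 with a median of 0.25. Gne, which starts sialic acid synthesis, had 1004 in the threonine-deficient pool and 842 in the control pool (0.25), and 0.56 in another probe set. Slc35a1, which carries the activated sialic acid into the Golgi, had 747 in the threonine-deficient pool and 606 in the control pool (0.30), and 0.59 in another probe set. Nanp, the phosphatase of the pathway, had 1921 in the threonine-deficient pool and 1525 in the control pool (0.33). None of the 5 reached 1.5-fold in its brightest probe set.

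Fucose supply had a median of 0.15 over 6 genes, 5 of them positive, including Gmds (0.26) and Gfus (0.16), which make activated fucose from activated mannose, and the salvage kinase gene Fcsk (0.19). Other probe sets above the floor gave 0.18 for Gmds, and 0.19 and 1.34 for Fcsk. UDP sugar supply had a median of −0.23 over 13 genes, 9 negative and 4 positive, 2 of the positive ones by a floor in the control pool. Gnpnat1 had 2458 in the threonine-deficient pool and 3321 in the control pool (−0.43), although its other probe sets gave −0.06 and 0.15. Pgm3 had 580.3 in the threonine-deficient pool and 773 in the control pool (−0.41), and both it and Gnpnat1 act in the synthesis of UDP-N-acetylglucosamine. Gfpt2, of the entry step, was at least 1.69-fold higher (447 in the threonine-deficient pool and 241, below the floor, in the control pool). The far brighter Gfpt1, of the same step, had 7666 in the threonine-deficient pool and 9185 in the control pool (−0.26).

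Proteins that carry O-linked chains went both ways. Of 18 mucins and mucin-like genes, 10 were above the floor, with a median of 0.00, 5 positive and 5 negative. Muc13, an epithelial surface mucin, had 733 in the threonine-deficient pool and 274 in the control pool, 2.68-fold higher. Muc20 was 1.88-fold higher (562 in the threonine-deficient pool, 298 in the control pool). Cd34, a mucin-like protein of vessels and progenitor cells, was 1.61-fold lower (418 in the threonine-deficient pool, 674 in the control pool). Muc1, a surface mucin of ducts and acini, had 8079.8 in the threonine-deficient pool and 8791 in the control pool (−0.12).

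Enzymes that start or edit other O-linked chains had a median of −0.02 over 14 genes, 7 positive and 7 negative. Pomt2, which starts O-mannose chains, was 2.19-fold higher (750.3 in the threonine-deficient pool, 343 in the control pool), with −0.20 in its other probe set. Pofut1, which fucosylates Notch-type repeats, was 1.90-fold higher (807 in the threonine-deficient pool, 425 in the control pool), with 0.08 in its other probe set, and Tmtc1, of another O-mannose pathway, was 1.59-fold higher. N-glycan branching had a median of 0.11 over 9 genes, with Man2a2 at 0.87 but 0.12 in its other probe set, Man1a2 at −0.41 but −0.12 and 0.42 in its others, and Mgat2 at −0.39 and −0.43 in its other. Other galactose and N-acetylgalactosamine transferases had a median of 0.11 over 5 genes, with B3galt6 at 0.26 and 1.04 in its other probe set, and Gbgt1 at least 1.19-fold higher. A list of glycan-removing hydrolases, which also holds the sugar kinase gene Nagk and the activator protein gene Gm2a, had a median of −0.21 over 8 genes, 6 negative, and the lysosomal galactosidase Glb1 was 1.73-fold lower (751 in the threonine-deficient pool, 1297 in the control pool). Golgi structure genes had a median of −0.08 over 24 genes, all within 1.5-fold in their brightest probe sets, from Cog8 at −0.52 to Golph3l at 0.35, but Cog8 had 0.54 and 1.68 in its other probe sets.

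**Figure D4:**
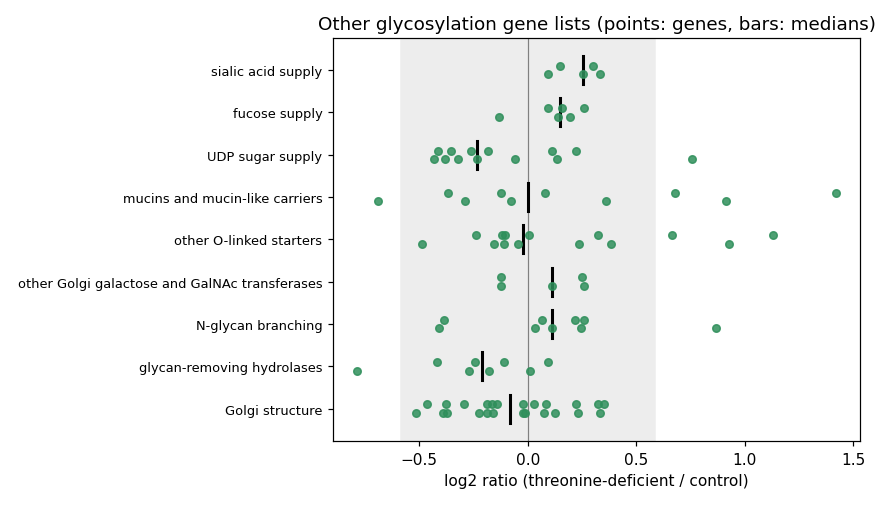
Log2 ratio of the threonine-deficient over the control pool for genes above the floor in 9 other glycosylation lists, with 1 point per gene, black bars for list medians and a grey band for differences within 1.5-fold. All 5 sialic acid supply genes lie right of 0, 9 of 13 UDP sugar supply genes lie left of it, and Muc13 (1.42) and Pomt2 (1.13) are the points furthest to the right.

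The pools also differed in markers of cell types. Sums of signals are of the values as deposited, not raised to the floor, over every listed gene, those below the floor included. Acinar markers had 10 of 10 genes above the floor, so the genes that define the labelled tissue were present, with summed signals of 1624264 in the threonine-deficient pool and 1504465 in the control pool. Adipocyte markers had 7 of 8 above the floor, Lep being below it, with sums of 23505 in the threonine-deficient pool and 42856 in the control pool. Of these 7, 3 were at least 2-fold lower, namely Car3, Cidec and Adipoq, beside 0.874% of all genes above the floor. Cidec had 95.3, below the floor, in the threonine-deficient pool and 604 in the control pool, so its sign was fixed by the floor. Log2 ratios were negative for 6 and positive for 1, Pparg. It had 347 in the threonine-deficient pool and 226, below the floor, in the control pool, so its sign was fixed by the floor. B and plasma cell markers had 7 of 9, with Cd79a and Tnfrsf17 below the floor and sums of 5988 in the threonine-deficient pool and 11392 in the control pool. Ighm was 3.73-fold and Mzb1 2.17-fold lower, while Cd22 was at least 1.83-fold higher, and the 4 other Ighm probe sets above the floor ran from −0.94 to 0.57. Islet markers had 10 of 10, all with negative log2 ratios, Sst lowest at −0.92, and sums of 147426 in the threonine-deficient pool and 180019 in the control pool. Of these islet genes, 9 cleared the floor in both pools, and the other did so in the control pool alone. Endothelial markers had 9 of 11, with Tie1 and Vwf below the floor and sums of 5510 in the threonine-deficient pool and 4058 in the control pool. Their log2 ratios were positive for 8 and negative for 1, and over the 7 that cleared the floor in both pools positive for 6 and negative for 1. Flt1 was at least 2.85-fold higher (755 in the threonine-deficient pool, 213 in the control pool), but its other probe sets above the floor gave −0.13 and −0.08. Duct markers had 9 of 12, with Krt7, Cftr and Slc4a4 below the floor, sums of 24203 in the threonine-deficient pool and 23532 in the control pool, 4 positive and 5 negative log2 ratios with a median of −0.09 (0.30 over the 7 genes that cleared the floor in both pools), and Car2 4.42-fold higher. Macrophage markers had 9 of 10 (Cd14 below the floor, sums of 10161 in the threonine-deficient pool and 10011 in the control pool) and fibroblast and stellate cell markers 6 of 10 (Col1a1, Pdgfrb, Des and Myh11 below the floor, sums of 25072 in the threonine-deficient pool and 25425 in the control pool). T and NK cell markers had 3 of 7, with Cd3d, Cd3e, Cd3g and Nkg7 below the floor and sums of 1973 in the threonine-deficient pool and 1452 in the control pool. Part of that difference came from genes below the floor, such as Cd3g with 200 in the threonine-deficient pool and 24.1 in the control pool. Nerve and Schwann cell markers had 3 of 6, with S100b, Th and Prph below the floor, sums of 2862 in the threonine-deficient pool and 1455 in the control pool, and Dbh at least 3.29-fold higher. Erythroid markers had 2 of 3, with Hba-a1 below the floor and sums of 1137 in the threonine-deficient pool and 777 in the control pool. The part of cell makeup in the glycosyltransferase values was not tested.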

How the data were processed

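Pancreatic RNA of 2 pools was hybridised to 1 array each. The deposited values are linear signal intensities per probe set, for which the submitters' processing notes name MAS5. The sources used here give no version of it, and detection calls were not used. After 2% was trimmed at each end the mean was 500.0 on both arrays, so ratios are relative to the rest of an array, and the number of arrays limits the precision. The table held 45101 probe sets, 64 of them controls, and 34945 with 1 gene symbol. The 69 genes had 143 probe sets, and 1 probe set with several symbols was left out. All 69 matched a RefSeq gene of GRCm38.p6 by identifier. Galnt17 and Gcnt4 were not analysed here.

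Each gene was read by its probe set of highest mean log2 signal, with Python 3.11.15, numpy 2.4.6 and pandas 2.3.3. Signals below 264.9 were raised to that floor. Differences of at least 2-fold were counted, and 1.5-fold as a second threshold. Every gene of the set above the floor is named with its signals, and up to 3 genes of each of 20 other lists by largest absolute log2 ratio. Muc1, Gfpt1, the glycolipid genes Ugcg and B4galnt1, Golph3l, Nagk, Pparg and markers below the floor were named beside these after their values were seen. The genes and lists were chosen with earlier results of these data known. With 1 array a group, a test was not possible. Calls were tested on simulated data with known changes, placed only in genes far above the floor and with noise smaller than the error per probe set. That test does not cover genes near the floor, such as St3gal5, St3gal6 and B4galt5. The alternatives were median centring, no floor, a pseudocount, a floor at percentile 50 or 75, a lowess trend (statsmodels 0.14.6), the median over probe sets and omission of probe sets with sharing suffixes.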

Additional observations from a re-analysis of the deposited data

How the results depend on the processing

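Centring on the median left every median and count within the error per probe set or 1.5 times. After the lowess trend was removed 2 genes, St3gal5 and St3gal6, were at least 2-fold lower, beside 1.01% of all genes. With no floor 6 genes were higher by 2-fold or more (14.1% of all genes) and 4 lower (10.7%), and at 1.5-fold 13 were higher (22%) and 10 lower (17.2%). With the floor at the 50th percentile (183.8) 1 gene, B4galt5, was at least 2-fold higher (2.68% of all genes), 3 genes passed 1.5-fold upward (10.4%), and the median of the O-linked start was 0.0745. At the 75th percentile (512.2) 0 genes were at least 2-fold lower (0.313%) and at 1.5-fold 0 were higher (3.00%) and 1, Galnt16, lower (3.05%). There St3gal5 had −0.44 and St3gal6 −0.13, and medians were −0.0819 over 26 genes and −0.4189 for fucosylation, from 1 gene. With a pseudocount equal to the floor 1 gene, B4galt5, was at least 2-fold higher (0.799%) and 0 lower (0.483%), and St3gal6 had −0.58. The median over probe sets gave −0.0491 over all genes of the set. Without sharing suffixes, which removes both probe sets of St3gal5, 27 genes were left, 0 at least 2-fold lower (0.841%), and at 1.5-fold 0 were higher (7.64%) and 1, Galnt16, lower (5.61%). Of 275 single-gene values under the 8 alternatives, 262 moved by less than the local spread and 5 changed sign; no gene past 2-fold reversed. Where a fold moved with the floor or with probe sets left out, the cause is the construction of that alternative; for the lowess trend the cause was not tested. Signals near the floor limit what can be said of St3gal5, St3gal6 and B4galt5. No paired analysis was possible because each group has 1 array.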

Other observations

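Several probe sets of the set that lie below the floor on both arrays were far apart as deposited. Gcnt2 was read by 8 probe sets, all below the floor, and 3 of them had signals of 177, 138 and 92.9 in the threonine-deficient pool, against 19.7, 14.7 and 8.16 in the control pool, while its brightest had 218 and 124. Another was also higher, with 159 in the threonine-deficient pool and 82.7 in the control pool. The rest went the opposite way, with 106, 19.2 and 12.0 in the threonine-deficient pool, against 139, 38.8 and 14.2 in the control pool. For St8sia6, a probe set other than the brightest had 312 in the threonine-deficient pool and 82.0 in the control pool, at least 1.18-fold higher. With no floor, St3gal2, St6galnac6, Fut2, B3gnt8, Galntl6 and B4galt5 were at least 2-fold higher, and Galntl5, Galnt12, Fut9 and St3gal5 at least 2-fold lower.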
